A study of Mus musculus with 4 samples.

Results

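The 10 cell cycle cyclins of classes A, B, D and E (Ccna1, Ccna2, Ccnb1, Ccnb2, Ccnb3, Ccnd1, Ccnd2, Ccnd3, Ccne1 and Ccne2) were followed in mouse embryos at the 2-cell stage. They were taken by symbol, through their Ensembl gene IDs, from a table of 53715 genes, and all 10 were found and tested. The tested embryos had been injected as zygotes with a small interfering RNA (siRNA) directed at SPENH0335, which the title of the series implies is an enhancer-derived RNA. The control embryos had been injected with siNC, the study's control siRNA. Each siRNA was used at 20 μM, and embryos of both groups were of a C57BL/DBA2 background and were cultured in KSOM, an embryo medium, after collection from the oviduct. Each group, called knockdown and control here, had 2 libraries of poly(A) RNA from whole embryos, and the deposited values are read counts per gene. The number of embryos behind a library, and whether libraries of a group were collected separately, are left unstated in the labels. The p-values below therefore reflect library-to-library spread alone, and that spread may be technical.

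Cyclins are the regulatory subunits of cyclin-dependent kinases. D cyclins respond to growth signals and act with Cdk4 and Cdk6 on the retinoblastoma proteins, E cyclins bring Cdk2 to the start of DNA synthesis, A cyclins serve DNA synthesis and the approach to mitosis, and B cyclins with Cdk1 drive mitosis and the meiotic divisions of the oocyte. The egg stores cyclin B1 mRNA and adjusts its translation through the length of its poly(A) tail, and much of the mRNA of the early embryo is such maternal stock. In libraries of poly(A) RNA, a change in tail length and a change in the number of transcripts cannot be told apart, and neither can fewer cells and less RNA per cell.

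Total counts were 94257563 and 99011109 in the knockdown libraries and 87900405 and 78865491 in the control libraries. The 12 markers of the 2-cell embryo and its maternal stock were all detected. They summed to between 6774 and 7285 CPM (counts scaled to a common library size with TMM, trimmed mean of M-values, factors) in knockdown and between 6989 and 7041 CPM in control, with the oocyte growth factor gene Bmp15 as the most abundant. None of the 12 passed adjustment in edgeR, but 7 had groups that did not overlap (32.7% of all genes tested) and 4 had an unadjusted p under 0.05 (3.85% of all genes). These 4 were the 2-cell stage genes Zscan4c, Zscan4d and Zscan4f, close paralogs whose reads may be shared, which were higher in knockdown, and the maternal gene Gdf9, which was lower. Their part in the cyclin values was not tested. Among the 2111 genes tested with a mean level of 100 CPM or more, the knockdown replicates lay farther apart (median absolute log2 difference 0.19) than the control replicates (0.07), so results that rest on 1 knockdown library are also given without it. The target has no row in the table, so the size of its knockdown was not measured here.

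The sequence of Ccnb1 bears on how far its counts can be trusted, because the mouse genome holds processed copies of its mRNA. In GENCODE M21, 4 processed pseudogenes matched the Ccnb1 transcript over at least 200 bases at 90% identity or more, and their counts are given with those of the gene below. A stretch of 60 coding bases from Ccnb1 (chr13:100783588-100783647, minus strand, GRCm38) is shown with the same stretch of each copy, because every copy differs from the gene in it. Capitals mark bases at which a copy and the gene differ.
Ccnb1: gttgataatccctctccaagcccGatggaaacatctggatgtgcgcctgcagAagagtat
Ccnb1-ps: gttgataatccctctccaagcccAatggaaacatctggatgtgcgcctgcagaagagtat
Gm12856: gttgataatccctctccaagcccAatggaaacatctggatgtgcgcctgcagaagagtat
Gm8416: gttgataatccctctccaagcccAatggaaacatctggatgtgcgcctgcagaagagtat
Gm4870: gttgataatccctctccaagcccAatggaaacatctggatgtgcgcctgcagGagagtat
The copies lie at chr7:42106772-42106831 (minus strand, Ccnb1-ps), chr4:118942939-118942998 (minus strand, Gm12856), chr14:8409269-8409328 (plus strand, Gm8416) and chr5:143438722-143438781 (plus strand, Gm4870). In this stretch Ccnb1-ps, Gm12856 and Gm8416 each had 1 mismatch to the gene and Gm4870 had 2.

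The promoters of Ccnb1, Ccnb2 and Ccne1 are shown because the mRNA of the first pair was highest, and that of Ccne1 lowest, in the same library. RefSeq promoters (GRCm38.p6, 250 bases before to 50 bases after the start) were available for 6 of the 10 cyclins, in 7 windows. Capitals mark CCAAT, the letters bound by the factor NF-Y, and TTTGAA, a form of the cell cycle genes homology region, on either strand.
Ccnb1, chr13:100786437-100786736, minus strand: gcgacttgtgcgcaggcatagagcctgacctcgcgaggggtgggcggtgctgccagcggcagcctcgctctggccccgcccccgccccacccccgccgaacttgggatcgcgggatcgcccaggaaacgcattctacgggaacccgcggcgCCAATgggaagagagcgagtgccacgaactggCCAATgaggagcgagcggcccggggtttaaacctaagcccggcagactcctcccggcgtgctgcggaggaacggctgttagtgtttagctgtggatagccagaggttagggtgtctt
Ccnb2, chr9:70421505-70421804, minus strand: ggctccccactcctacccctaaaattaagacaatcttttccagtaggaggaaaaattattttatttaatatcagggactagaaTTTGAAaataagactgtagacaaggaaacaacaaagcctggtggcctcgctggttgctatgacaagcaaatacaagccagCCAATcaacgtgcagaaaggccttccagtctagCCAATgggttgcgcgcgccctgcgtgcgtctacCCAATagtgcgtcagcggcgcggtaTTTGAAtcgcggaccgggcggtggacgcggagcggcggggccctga
Ccne1, chr7:38107441-38107740, minus strand: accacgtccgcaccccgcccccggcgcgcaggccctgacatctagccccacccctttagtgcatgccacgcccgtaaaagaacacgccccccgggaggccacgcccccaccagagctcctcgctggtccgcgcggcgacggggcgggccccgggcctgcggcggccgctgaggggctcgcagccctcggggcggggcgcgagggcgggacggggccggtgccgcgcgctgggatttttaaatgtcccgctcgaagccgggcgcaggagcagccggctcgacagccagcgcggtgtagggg
The Ccnb1 window held CCAAT 2 times, beginning 99 and 67 bases before the start. The Ccnb2 window held CCAAT 3 times, at 87, 54 and 21 bases before the start, and TTTGAA 2 times, at 167 bases before and 4 bases after it. The Ccne1 window held neither. Ccnb3 was also highest in that library, and its window held neither. Ccnd3 was below both controls there, and of its windows 1 held CCAAT. Ccna2, Ccnd1, Ccnd2 and Ccne2 had no window. Whether matches go with levels was not tested. The Ccna1 window held CCAAT 1 time, and no window of a cyclin held TTTNNCGC, a form of the site of E2F factors. No 2 of these matches shared a base. Of all 32851 promoter windows in the table, 37.4% held CCAAT at least once and 11.7% at least 2 times, 17.9% held TTTGAA and 5.2% held TTTNNCGC. These matches are letters in a window and not measured binding. Other forms of the homology region and of the E2F site were not searched.

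B cyclins made up most of the cyclin mRNA. Per unit of length, as CPM per kb of annotated exon, the 3 B cyclins took 75.7 and 79.3% of the summed level of the 10 cyclins in the knockdown libraries and 78.2 and 78.3% in the control libraries. A cyclins took 12.9 and 10.8% in knockdown and 11.8 and 11.4% in control, and E cyclins took 10.8 and 9.62% in knockdown and 9.47 and 9.80% in control. D cyclins took 0.614 and 0.263% in knockdown and 0.545 and 0.509% in control. The order B, A, E, D therefore held in each of the 4 libraries. As raw counts the 10 genes held 0.267 and 0.342% of all counts in knockdown and 0.303 and 0.312% in control.

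**Figure D1:**
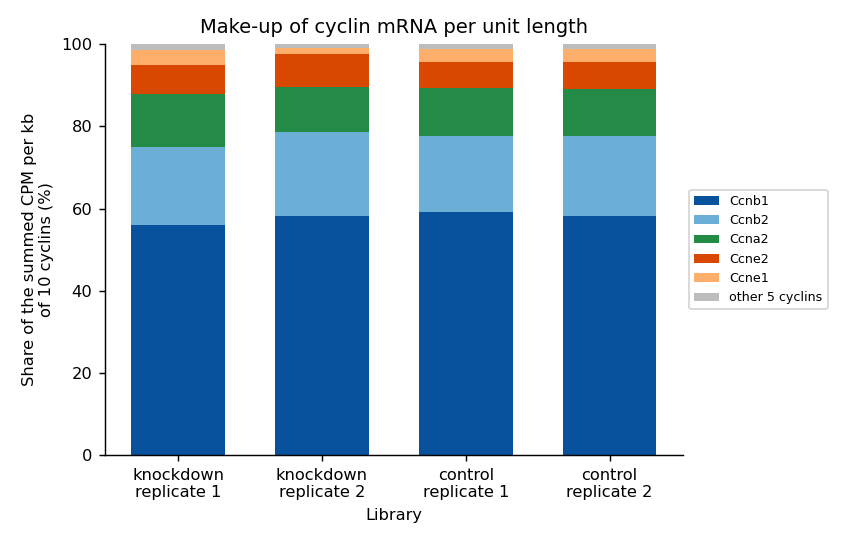
Stacked bars give the share, in percent, of each cyclin in the summed CPM per kb of the 10 cyclins, for each of the 4 libraries. Ccnb1 takes 56.0 and 58.2% in knockdown and 59.1 and 58.3% in control, and the 5 cyclins in grey (Ccna1, Ccnb3, Ccnd1, Ccnd2 and Ccnd3) take the narrow top of each bar.

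Over the 4 libraries, Ccnb1 had the highest mean level per length (494 CPM per kb), followed by Ccnb2 (166), Ccna2 (99.1), Ccne2 (60.4), Ccne1 (23.9), Ccnb3 (5.76), Ccnd1 (2.21), Ccnd3 (1.30), Ccnd2 (0.473) and Ccna1 (0.163 CPM per kb). Neighbours in this order had ranges over the libraries that did not overlap, except Ccnd1 with Ccnd3 and Ccnd2 with Ccna1. Taking the longest transcript as the length in place of all exons moved Ccnd3 (2.96 CPM per kb) above Ccnd1 (2.79) and left the other places as they were.

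**Figure D2:**
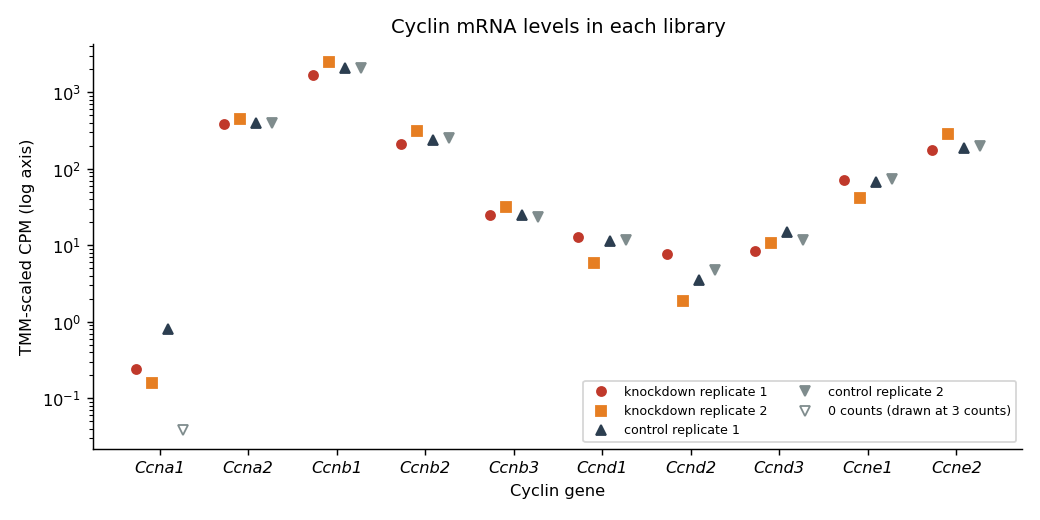
Points give the TMM-scaled CPM of each cyclin in each library on a log axis, with knockdown libraries left of control libraries. Ccnb1 lies between 1713 and 2468 CPM in knockdown and between 2067 and 2093 CPM in control, and the open symbol for Ccna1 stands for a library with 0 counts.

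No cyclin passed the test for a difference between knockdown and control embryos, in either direction. The test (edgeR quasi-likelihood, Benjamini-Hochberg adjustment over 25565 genes) called 0 of the 10, with an adjusted p of 0.9999 for each and a smallest unadjusted p of 0.13, for Ccnd3. Over all genes it called 0% at an adjusted p under 0.05. At an unadjusted p under 0.05 stood 984 of all genes (3.85%) and 0 cyclins. DESeq2 called 34 genes (0.133%), none of them a cyclin, and limma-voom called 0 genes (0%). At an unadjusted p under 0.05 DESeq2 had 0 cyclins and 4.38% of all genes, and limma-voom had 0 cyclins and 3.13% of all genes. Fold changes lay above 0 for 6 cyclins and below 0 for 4, where 49.7% of all genes lay above 0, with a median log2 fold change of 0.03 against -0.0025 over all genes tested. The 95% interval lay within 2-fold in either direction for 5 cyclins (Ccna2, Ccnb1, Ccnb2, Ccnb3 and Ccne2), which 31.8% of all genes and 87.8% of the 8185 genes averaging 10 CPM or more also did. For these 5 genes a change of 2-fold or more lies outside the interval, and for the others it does not.

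**Figure D3:**
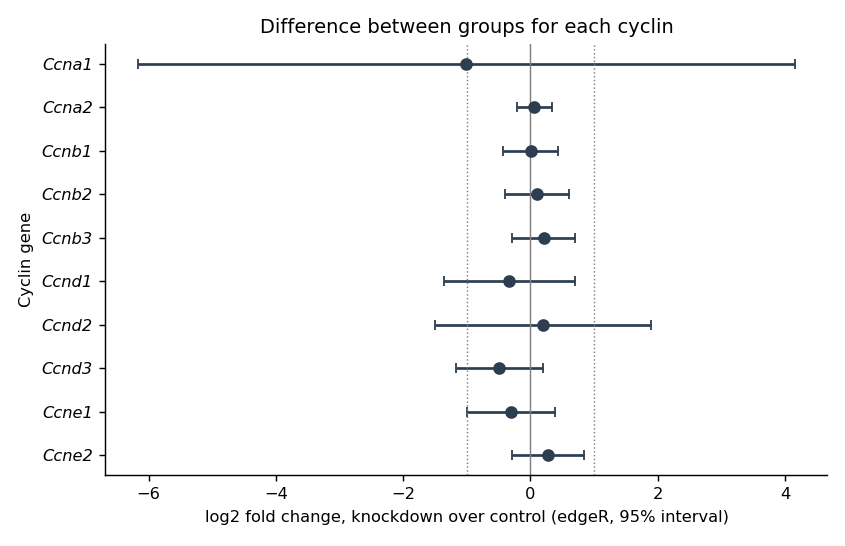
Points give the log2 fold change of knockdown over control for each cyclin and bars its 95% interval from edgeR; dotted lines mark 2-fold in either direction. Every interval crosses 0, with the narrowest for Ccna2 (-0.21 to 0.34) and the widest for Ccna1 (-6.16 to 4.15).

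Ccnb1 (chr13:100778650-100786570, minus strand, GRCm38) encodes the main mitotic and meiotic partner of Cdk1. It had 1713 and 2468 CPM in the knockdown libraries and 2067 and 2093 CPM in the control libraries. The control libraries lay between the knockdown libraries, which were the lowest and the highest of the 4. The means were 2090 ± 534 CPM in knockdown and 2080 ± 18.8 CPM in control (SD, n = 2 each), a log2 fold change of 0.0069 (SE 0.17, 95% interval -0.42 to 0.44). The direction of so small a difference turned with the scaling: with library totals alone the log2 fold change was -0.04. Without knockdown replicate 1 it was 0.25, and without knockdown replicate 2 it was -0.27. Opposite signs follow, apart from changes in scaling, when both controls lie between the knockdown libraries, so this turn is no separate result. The same holds for each cyclin below with that order.

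The Ccnb1 copies were counted at a small share of the gene. Ccnb1-ps, 99.2% identical over 1287 bases, had 2685 and 4359 counts in knockdown and 3190 and 2883 counts in control, against 165315 and 231723 counts in knockdown and 183274 and 168151 counts in control for Ccnb1. Its counts were thus 1.62 and 1.88% of those of Ccnb1 in knockdown and 1.74 and 1.71% in control. Of the windows of 100 bases along the alignment, 43.2% were identical in gene and copy, against 19.3% for Gm12856, 15.8% for Gm8416 and 5.1% for Gm4870. The 4 copies together held 3.23 and 3.73% of the joint counts in knockdown and 3.28 and 3.46% in control. Whether these are reads of the gene placed on a copy, or transcripts of the copy, was not tested. The labels do not say how reads with several matches were counted. Any such reads that were left out are missing from gene and copies alike, and adding the copies cannot restore them. With the copies added to the gene, an alternative chosen after seeing the data, the log2 fold change of Ccnb1 was 0.0093 (SE 0.17).

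**Figure D4:**
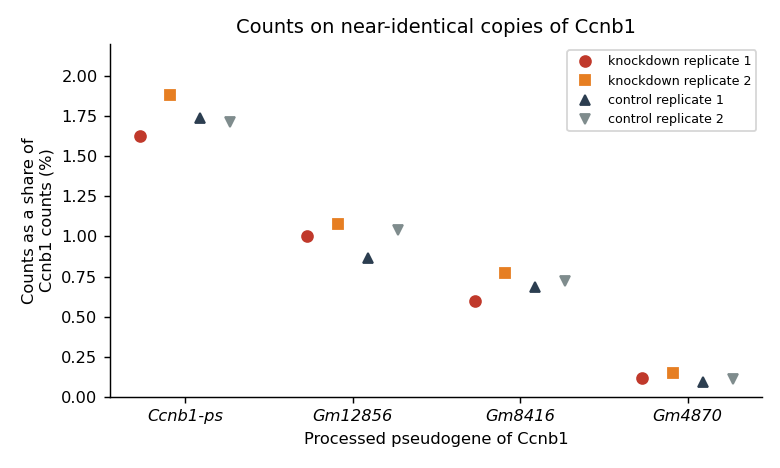
Points give the counts of each processed pseudogene of Ccnb1 as a percentage of the Ccnb1 counts of the same library. The order Ccnb1-ps, Gm12856, Gm8416, Gm4870 is the order of identity to the gene, from 99.2 to 96.2%, and Ccnb1-ps takes 1.62 and 1.88% in knockdown and 1.74 and 1.71% in control.

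Ccnb2 (chr9:70407692-70421547, minus strand), a B cyclin that mice can live without, had 211 and 315 CPM in knockdown and 235 and 253 CPM in control. As with Ccnb1, the control libraries lay between the knockdown libraries, and knockdown replicate 2 was the highest. Its log2 fold change was 0.11 (SE 0.20, 95% interval -0.40 to 0.61). Without knockdown replicate 1 it was 0.37, and it turned to -0.21 without knockdown replicate 2. The share of Ccnb2 within the B class was 25.1 and 25.8% in knockdown and 23.7 and 24.8% in control, so Ccnb1 and Ccnb2 kept nearly the same ratio in each library. The summed level of the class was 1948 and 2814 CPM in knockdown and 2327 and 2370 CPM in control.

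Ccnb3 (chrX:6979652-7041619, minus strand), whose product is needed for the end of the first meiotic division in mouse oocytes, had 25.0 and 31.4 CPM in knockdown and 25.2 and 23.6 CPM in control. Knockdown replicate 2 was again the highest, and the groups overlapped. The log2 fold change was 0.21 (SE 0.20), with 0.36 without knockdown replicate 1 and 0.039 without knockdown replicate 2.

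Ccna2 (chr3:36564865-36572150, minus strand), the A cyclin of somatic cells, which embryos also need, had 382 and 445 CPM in knockdown and 396.4 and 396.1 CPM in control. The control libraries were nearly equal and lay between the knockdown libraries. The log2 fold change was 0.06 (SE 0.11, 95% interval -0.21 to 0.34), so a change outside 0.863 to 1.26-fold lies beyond the interval. The fold change was 0.17 without knockdown replicate 1 and turned to -0.048 without knockdown replicate 2. Ccna2 shares 510 exon bases with Exosc9 on the opposite strand, which had 2477 and 2176 counts in knockdown and 2559 and 2653 counts in control, against 36861 and 41777 in knockdown and 35152 and 31817 in control for Ccna2.

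Ccna1 (chr3:55045469-55055501, minus strand), the A cyclin of the male germ line, was near the limit of detection, with 23 and 15 counts in knockdown and 71 and 0 counts in control. A count of 0 in control replicate 2 allows up to 0.038 CPM at a floor of 3 counts, which covers counting error only. The fitted log2 fold change was -1.01 (SE 2.06) and rested on control replicate 1: without it the fitted value was 7.18, which depends on the prior count and is no bound. No direction can be given for this gene. The 15 sperm markers, 10 of them tested, summed to 191 and 184 CPM in knockdown and 194 and 195 CPM in control, with Smcp and Gapdhs at 0 counts in every library. Most of that sum was Odf2, which encodes a sperm tail and centrosome protein, with 172 and 174 CPM in knockdown and 178 and 179 CPM in control. Without Odf2 the sums were 18.4 and 9.75 CPM in knockdown and 16.6 and 16.1 CPM in control. Of the 10 tested, 8 had a log2 fold change below 0 (median -0.43), where 49.7% of all genes lay above 0. Groups did not overlap in 8 of the 10, against 32.7% of all genes tested (17.1% with knockdown lower). The kinase gene Tssk6 had an unadjusted p under 0.05 in edgeR (3.85% of all genes). It had 12 and 4 counts in knockdown and 45 and 74 counts in control. The part of these markers in the Ccna1 values was not tested.

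Ccne2 (chr4:11191351-11204779, plus strand) was the more abundant E cyclin, with 178 and 284 CPM in knockdown and 186 and 196 CPM in control. The control libraries lay between the knockdown libraries. The log2 fold change was 0.28 (SE 0.23, 95% interval -0.29 to 0.84). It was 0.58 without knockdown replicate 1 and turned to -0.09 without knockdown replicate 2. Exons of Ints8 on the opposite strand share 609 bases with it, and Ints8 had between 2690 and 4922 counts in the 4 libraries, against 15763 to 26699 for Ccne2.

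Ccne1 (chr7:38097984-38107534, minus strand), which acts with Cdk2 like Ccne2, went the other way in one library. It had 72.6 and 41.1 CPM in knockdown and 67.9 and 72.9 CPM in control, with knockdown replicate 2 the lowest and the other 3 libraries close together. Its log2 fold change was -0.31 (SE 0.28, 95% interval -1.004 to 0.387), with -0.78 without knockdown replicate 1 and 0.05 without knockdown replicate 2. Within the E class, Ccne1 took 34.8 and 15.9% of the level per length in knockdown and 32.4 and 32.8% in control. Knockdown replicate 2 alone departed from a make-up that the other libraries shared.

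The D cyclins were low. Ccnd1 (chr7:144929931-144939925, minus strand), the D cyclin best known as a target of growth signals, had 12.7 and 5.79 CPM in knockdown and 11.5 and 11.7 CPM in control. Knockdown replicate 2 was the lowest, and the control libraries lay between the knockdown libraries. The fitted log2 fold change was -0.33 (SE 0.41). It was -1.002 without knockdown replicate 1 and turned to 0.13 without knockdown replicate 2. LTO1, on the opposite strand, shares 1100 exon bases with it and had 503 and 531 counts in knockdown and 596 and 635 counts in control, against 1224 and 544 in knockdown and 1018 and 943 in control for Ccnd1. Without a known strand setting, reads of such overlapping genes cannot be told apart.

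Ccnd2 (chr6:127125162-127152193, minus strand), which the ovarian granulosa cells need to multiply, had 7.65 and 1.86 CPM in knockdown and 3.55 and 4.76 CPM in control. The knockdown libraries were the highest and the lowest of the 4, and the log2 fold change was 0.20 (SE 0.68, 95% interval -1.51 to 1.90). It turned to -1.15 without knockdown replicate 1 and was 0.89 without knockdown replicate 2, and it was below 0 in limma-voom (-0.11) and with the replicate block (-0.12). The 19 markers of cumulus and granulosa cells, 15 of them tested, summed to 115 and 113 CPM in knockdown and 125 and 109 CPM in control, and Inha, a defining marker, had 0 counts in every library. The most abundant of these markers was Cyp19a1, with 36.8 and 55.7 CPM in knockdown and 47.4 and 38.6 CPM in control. Without Cyp19a1 the other markers summed to 78.3 and 57.3 CPM in knockdown and 77.9 and 70.2 CPM in control. Of the 15 tested, 3 had groups that did not overlap (32.7% of all genes tested). Has2, a cumulus gene, had an unadjusted p under 0.05 in edgeR (3.85% of all genes). It had 0.932 and 0.458 CPM in knockdown and 2.65 and 2.58 CPM in control. The part of these cells in the Ccnd2 values was not tested.

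Ccnd3 (chr17:47505051-47599691, plus strand), a D cyclin prominent in developing lymphocytes, was the only one of the 10 whose groups did not overlap. Groups did not overlap in 32.7% of all genes tested (15.6% with knockdown higher, 17.1% with knockdown lower). It had 8.33 and 10.7 CPM in knockdown and 15.0 and 11.7 CPM in control. Its log2 fold change was -0.49 (SE 0.27, 95% interval -1.17 to 0.20, adjusted p 0.9999 in edgeR). The value was below 0 under every alternative run and, leaving out 1 library at a time, lay between -0.67 and -0.30. Groups that do not overlap keep their direction when a library is left out, apart from changes in scaling, so this adds no support. The 13 markers of blood, oviduct and stroma summed to 91.1 and 82.7 CPM in knockdown and 93.4 and 113 CPM in control, with Hbb-bs and Col3a1 at 0 counts in every library. Of the 10 of them that were tested, 7 had a log2 fold change below 0 (median -0.70) and 6 had groups that did not overlap. Pecam1, an endothelial gene and the most abundant of them, had 49.3 and 61.1 CPM in knockdown and 50.5 and 49.4 CPM in control. Without it the sums were 41.8 and 21.5 CPM in knockdown and 42.9 and 63.4 CPM in control. Krt7, an epithelial keratin, had an unadjusted p under 0.05 in edgeR (3.85% of all genes). It had 19 and 55 counts in knockdown and 181 and 94 counts in control. The part of these markers in the Ccnd3 values was not tested. Ccnd3 shares 361 exon bases with Bysl on the opposite strand, which had 1216 and 677 counts in knockdown and 925 and 807 counts in control, against 804 and 1006 in knockdown and 1327 and 941 in control for Ccnd3. The processed copy Ccnd3-ps, 96.5% identical over 879 bases, had 4 and 0 counts in knockdown and 0 and 30 counts in control.

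The knockdown replicates lay farther apart than the group means for 8 of the 10 cyclins, which was also so for 66.5% of all genes tested and 71.7% of those of at least 100 CPM. A difference of 2 single libraries tends to be larger than a difference of means. Between the knockdown replicates the median absolute difference over the 10 cyclins was 0.55 in log2 CPM, against 0.10 between the control replicates and 0.22 between the group means. Over the 25565 genes tested the same medians were 0.53 for knockdown and 0.35 for control. Over the genes averaging 10 CPM or more they were lower, at 0.26 for knockdown and 0.13 for control. For 9 of the 10 cyclins, all but Ccna1, the knockdown replicates lay farther apart than the control replicates, which was so for 61.3% of all genes and 77.0% of those of at least 100 CPM. In 6 cyclins (Ccna2, Ccnb1, Ccnb2, Ccnd1, Ccnd2 and Ccne2) both control libraries lay between the knockdown libraries, against 23.2% of all genes and 30.6% of those averaging 10 CPM or more. These are counts of genes in the same 4 libraries, not of independent observations.

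**Figure D5:**
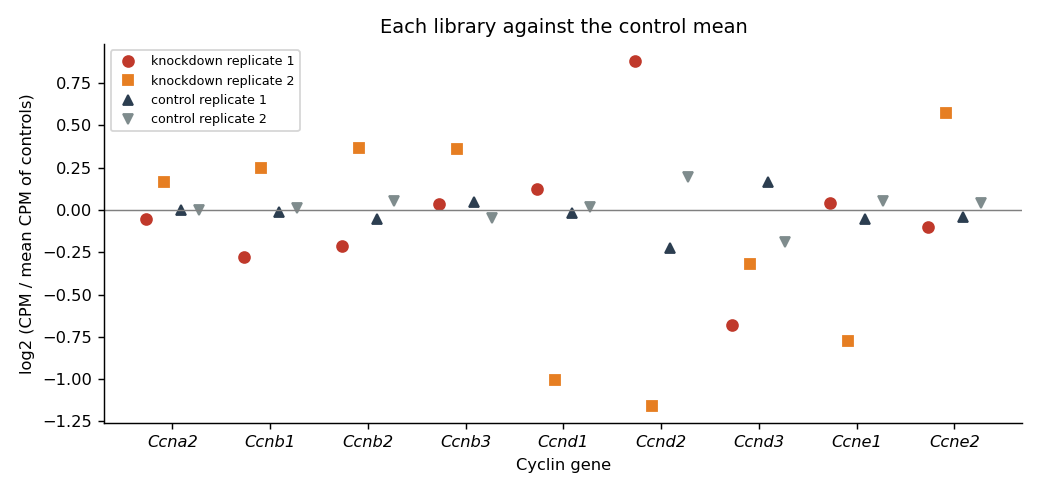
Points give the log2 ratio of each library's CPM to the mean CPM of the controls, for the 9 cyclins other than Ccna1. Knockdown replicate 2 lies above the controls for Ccna2 (0.17), Ccnb1 (0.25), Ccnb2 (0.37), Ccnb3 (0.36) and Ccne2 (0.57) and below them for Ccnd1 (-1.003), Ccnd2 (-1.16), Ccnd3 (-0.32) and Ccne1 (-0.78).

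Knockdown replicate 2 was above both control libraries for Ccna2, Ccnb1, Ccnb2, Ccnb3 and Ccne2 and below both for Ccnd1, Ccnd2, Ccnd3 and Ccne1. Without knockdown replicate 1, so that knockdown replicate 2 stood alone against the controls and was assumed to vary like them, 7 cyclins (all but Ccna1, Ccnb3 and Ccnd3) had an unadjusted p under 0.05 in edgeR. The same held for 13.1% of the 27947 genes tested there, and 0 cyclins were called, as against 3 genes (0.0107%). The smallest adjusted p of a cyclin there was 0.14, for Ccne2, and over all alternatives the adjusted p of Ccne2 ran up to 1.0. Without knockdown replicate 2, 1 cyclin, Ccnb1, had an unadjusted p under 0.05, as 8.02% of 28107 genes did, and its fold change had the opposite sign. Here 2 genes (0.00712%) were called, neither a cyclin. These are statements on single libraries and not on the knockdown.

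The kinases that cyclins activate were present at levels of their own. Per length, Cdk1 had a mean over the 4 libraries of 11.6 CPM per kb, Cdk2 2.14, Cdk4 1.68 and Cdk6 1.21 CPM per kb. All were below the 494 CPM per kb of Ccnb1. Cdk1 was above Ccnb3 (5.76), the D cyclins (0.473 to 2.21) and Ccna1 (0.163 CPM per kb). Cdk1 had 55.7 and 39.7 CPM in knockdown and 65.8 and 67.0 CPM in control. Both knockdown libraries lay below both control libraries, as in 17.1% of all genes tested. The log2 fold change of Cdk1 was -0.48 (SE 0.20, adjusted p 0.9999 in edgeR). Cdk4 had 5.49 and 3.82 CPM in knockdown and 5.74 and 6.72 CPM in control. Cks2, a small subunit of the kinase complexes and the most abundant of the 9 kinase partners listed, had 832 and 729 CPM in knockdown and 755 and 818 CPM in control. In Cdk6 control replicate 1 stood apart, with 274 counts against 2146 and 1789 in knockdown and 1878 in the other control library. None of the 9 partners was called in either direction, and their median log2 fold change was -0.08. Of these fold changes 1 lay above 0 and 8 below, where 49.7% of all genes lay above 0. Groups did not overlap in 4 of the 9, against 32.7% of all genes tested.

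Inhibitors of the kinases were also uncalled in either direction (7 genes, median log2 fold change -0.10). Of these 2 lay above 0 and 5 below, where 49.7% of all genes lay above 0. Cdkn1a, which encodes p21 and was the most abundant, had 43.9 and 17.9 CPM in knockdown and 31.3 and 39.1 CPM in control. Cdkn1b, which encodes p27, had 18.9 and 19.8 CPM in knockdown and 17.1 and 14.2 CPM in control. Cdkn2b had 0 and 6 counts in knockdown and 62 and 9 counts in control. Cdkn1a thus showed the same library as lowest as Ccnd1, Ccnd2 and Ccne1 did.

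Enzymes that set the phosphorylation of Cdk1 had a median log2 fold change of 0.10 over 9 genes, and none was called. Of these 7 lay above 0 and 2 below, where 49.7% of all genes lay above 0. Wee2, the oocyte form of the inhibitory kinase, was the most abundant, with 1139 and 1224 CPM in knockdown and 1178 and 1178 CPM in control. Cdc25b, a phosphatase that activates Cdk1 and resumes meiosis in mouse oocytes, had 30.3 and 40.7 CPM in knockdown and 25.9 and 27.3 CPM in control. Pkmyt1, an inhibitory kinase, had 8.43 and 8.77 CPM in knockdown and 10.1 and 15.9 CPM in control.

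Cyclins A and B are destroyed through the anaphase-promoting complex. Of 20 genes of this complex and its regulators none was called, 0 had an unadjusted p under 0.05 in the higher direction (1.56% of all genes) and 1 in the lower direction (2.29% of all genes). The median log2 fold change was 0.03. That 1 gene was Fbxo5, an inhibitor of the complex, with 62.7 and 53.0 CPM in knockdown and 88.0 and 85.1 CPM in control (log2 fold change -0.58, SE 0.14, adjusted p 0.9999 in edgeR). Ube2c, a ubiquitin-conjugating enzyme of the complex, had 59.2 and 48.4 CPM in knockdown and 63.5 and 67.4 CPM in control. Cdc27, a core subunit and the most abundant of the list, had 533 and 550 CPM in knockdown and 568 and 523 CPM in control.

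Cyclin E is destroyed through SCF-type ligases. Of 12 symbols listed for this route 11 were in the table, none was called, and their median log2 fold change was 0.12. Fbxw7, the receptor that recognises cyclin E, had 22.2 and 22.4 CPM in knockdown and 19.2 and 17.5 CPM in control. Usp28, a deubiquitinase that counters Fbxw7, had 361 and 385 CPM in knockdown and 350.4 and 322 CPM in control. Cul1, the scaffold, was the most abundant, with 2061 and 2106 CPM in knockdown and 2066 and 2144 CPM in control.

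The retinoblastoma and E2F proteins and the factors that switch on mitotic genes had a median log2 fold change of -0.02 over 17 genes, and none was called. E2f5, a repressive E2F and the most abundant, had 508 and 520 CPM in knockdown and 483 and 493 CPM in control. Foxm1, an activator of B cyclin transcription, had 42.5 and 55.9 CPM in knockdown and 40.0 and 39.2 CPM in control. E2f3 had 18 and 32 counts in knockdown and 86 and 40 counts in control.

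Of 15 cyclins outside classes A, B, D and E, none was called, and the median log2 fold change was 0.07. In edgeR 1 had an unadjusted p under 0.05 (3.85% of all genes). It was Ccng1, a p53 target, with 13.4 and 18.1 CPM in knockdown and 30.8 and 26.8 CPM in control. Ccnj had 22.5 and 21.6 CPM in knockdown and 27.4 and 31.8 CPM in control, and Ccnt2, a partner of the elongation kinase Cdk9, had 114 and 159 CPM in knockdown and 146 and 125 CPM in control.

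The gene whose pattern over the 4 libraries was most like that of Ccnb1 was Plk1, which encodes a mitotic kinase that acts with cyclin B. The likeness was measured as the root mean square difference of log2 CPM, each gene centred on its mean, among 7453 protein-coding genes averaging 10 CPM or more. The difference was 0.0040 for Plk1, 0.0067 for Naa16, a subunit of an N-terminal acetyltransferase, and 0.015 for Ppid, a cyclophilin. Plk1 had 61.7 and 88.9 CPM in knockdown and 74.1 and 75.7 CPM in control. With only 4 libraries many genes come close by this measure: 119 lay within 0.05 of Ccnb1 and 815 within 0.1.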

How the data were processed

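Poly(A) RNA of whole 2-cell embryos was sequenced from pre-amplified cDNA, in 2 knockdown and 2 control libraries. The authors deposited 1 table of counts per gene, which by their values are whole numbers without normalization. HISAT2 2.1.0 and the build mm10 stand in the submitters' processing notes, with Trim Galore 0.6.5, Picard 2.18.2 and CASAVA 1.8. Counting tool, annotation, strand setting and treatment of duplicates: not given in the sources used here.

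Of 53715 rows, 53620 matched GENCODE M21 (GRCm38) by Ensembl ID without version. The members and gene lists were chosen with earlier results of these data known. The test on counts was that of edgeR 4.0.16 (R 4.3.3): filterByExpr (minimum count 10, 25565 genes kept), TMM scaling, and the quasi-likelihood F-test with group as the only term, two-sided, adjusted by Benjamini-Hochberg at 0.05. SE is the fold change over the square root of F. CPM per kb divides CPM by the length of all annotated exons.

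Genes were named by a rule: all cyclins, and from each list those called or else the 2 with the smallest p, with the most abundant member. From the marker lists the most abundant member was taken, and markers at 0 in every library or with an unadjusted p under 0.05 were named after their values were seen. Alternatives were DESeq2 1.42.0 and its size factors, limma-voom (limma 3.58.1), library totals alone, no low-count filter, the replicate number as a block, and each library left out. The fit was first tested on simulated counts with 100 genes changed 2-fold and 100 changed 4-fold, all averaging 10 CPM or more. It called 39 of the former and 92 of the latter, with 12 false calls, so a 2-fold change can be missed.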

Additional observations from a re-analysis of the deposited data

How the results depend on the processing

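No cyclin was called under any of the alternatives run, among which the adjusted p of a cyclin ran from 0.14 to 1.0. Over all genes, 0 were called in edgeR with DESeq2 size factors, with library totals alone, without the low-count filter and with the replicate block, and 0 in limma-voom, while DESeq2 called 34 (unadjusted p under 0.05: between 479 with the replicate block and 1121 in DESeq2). Leaving out 1 library at a time gave between 0 and 3 called genes, 3 without knockdown replicate 1 and 2 without knockdown replicate 2. Cyclins with an unadjusted p under 0.05 numbered 7 and 1 there and 0 in the other alternatives. With limma-voom the log2 fold change turned to 1.35 for Ccna1, -0.0194 for Ccnb1 and -0.11 for Ccnd2. With the replicate block it turned to 1.18 for Ccna1, -0.017 for Ccnb1 and -0.12 for Ccnd2. The block changed no call, and over all genes tested same-numbered libraries did not deviate together (correlation -0.019). The labels do not say whether same-numbered libraries were handled together, and a single value over all genes cannot settle it. With library totals alone that of Ccnb1 turned to -0.0427. Leaving out 1 library at a time, log2 fold changes ran from -2.002 to 7.18 for Ccna1, -0.048 to 0.17 for Ccna2, -0.27 to 0.25 for Ccnb1, -0.21 to 0.37 for Ccnb2, -1.002 to 0.13 for Ccnd1, -1.15 to 0.89 for Ccnd2, -0.78 to 0.05 for Ccne1 and -0.092 to 0.58 for Ccne2. For the cyclins whose control libraries both lay between the knockdown libraries, opposite signs without 1 or the other knockdown library follow from that order. The causes of the other turns were not tested. Ccnb3 (0.039 to 0.36) and Ccnd3 (-0.67 to -0.30) kept their direction, which for Ccnd3 follows from groups that do not overlap. With the longest transcript as length, the share of Ccnb1 in the summed level was 66.8% in place of 57.9%. With 2 libraries a group, an exact permutation test of a single value cannot go below a p of 0.333.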

Other observations

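Other rows of the table carry a cyclin in their name without being cyclins of these classes, and none of those tested was called in edgeR (adjusted p 0.9999 for each). Ccndbp1, whose product binds D cyclins, was abundant, with 1027 and 1187 CPM in knockdown and 1084 and 1128 CPM in control. Ccnb1ip1, a meiotic recombination factor named for binding cyclin B1, had 9.19 and 2.49 CPM in knockdown and 7.43 and 7.97 CPM in control, with knockdown replicate 2 the lowest. Ccnb2-ps, a transcribed pseudogene, had 568 and 282 counts in knockdown and 94 and 288 counts in control. It was highest in knockdown replicate 1, whereas Ccnb2 was highest in knockdown replicate 2. Ccnq had 11.5 and 7.15 CPM in knockdown and 8.75 and 13.3 CPM in control. These genes were chosen by name after the table was seen.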
